A study of Mus musculus with 9 samples.

Results

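Inhbe, Adm2, Gdf15, Fgf21, Vegfa and Stc2 are genes for secreted proteins that cells are known to induce under stress. They were taken by name, as the rows of the count table whose identifier carries one of these symbols in the GENCODE annotation of the mouse genome build GRCm38. All 6 were found among the 20189 gene rows of the table, and all 6 were among the 20143 genes with at least 1 count over the 9 libraries, the set that was tested. The study deprived E14 cells, a line of pluripotent mouse embryonic stem (ES) cells of wild-type genotype, of single amino acids and compared them with unstarved cells. Analysed here were 3 Thr-starved, 3 Cys-starved and 3 unstarved libraries of poly(A) RNA, with a starvation time of 3 h in the labels. Cells of every group came from this 1 line, carried no engineered allele, and had been grown on gelatin with leukemia inhibitory factor, β-mercaptoethanol and serum. Per the labels, the control medium held all amino acids, and the starvation medium described there, for Arg and Leu, held dialyzed serum, leukemia inhibitory factor and β-mercaptoethanol. The medium used to remove Thr or Cys for these libraries is not given in the sources used here. The labels do not say whether the libraries of a group came from separate cultures, so the p-values measure the spread between these libraries, which may be technical.

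When an amino acid runs short, uncharged tRNA activates the kinase GCN2, which phosphorylates the translation factor eIF2α. Bulk translation then falls while the transcription factor ATF4 is translated, and ATF4 pairs with C/EBP proteins on C/EBP-ATF response elements in the DNA of its target genes. This integrated stress response (ISR) carries signals beyond the cell through secreted proteins. GDF15, a distant TGF-β family member, acts on appetite through the brain receptor GFRAL with RET, and FGF21 is an endocrine fibroblast growth factor that needs the coreceptor β-klotho. INHBE is the β subunit of activin E, ADM2 (intermedin) is a vasodilator peptide of the calcitonin family, VEGFA is the main growth factor of blood vessels, and STC2 is a glycoprotein that inhibits the protease PAPP-A.

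The response element was searched in the promoters of all 6 members, and 3 of them are shown: those of Inhbe and Fgf21, which held a match, and that of Adm2, which rose strongly under both starvations and held none. Each sequence is the RefSeq window of GRCm38.p6 from 250 bases before to 50 bases after the annotated start, 5′ to 3′ on the strand of the gene. Capitals mark a match to TGATGNAA, the core of the C/EBP-ATF response element, searched on both strands.
Inhbe, chr10:127351799-127352098, minus strand: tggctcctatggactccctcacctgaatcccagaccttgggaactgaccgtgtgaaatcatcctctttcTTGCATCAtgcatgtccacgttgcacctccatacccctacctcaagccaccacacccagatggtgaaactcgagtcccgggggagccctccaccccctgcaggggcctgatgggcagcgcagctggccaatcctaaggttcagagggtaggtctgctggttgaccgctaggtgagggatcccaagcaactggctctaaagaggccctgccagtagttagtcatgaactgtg
Fgf21, chr7:45615441-45615740, minus strand: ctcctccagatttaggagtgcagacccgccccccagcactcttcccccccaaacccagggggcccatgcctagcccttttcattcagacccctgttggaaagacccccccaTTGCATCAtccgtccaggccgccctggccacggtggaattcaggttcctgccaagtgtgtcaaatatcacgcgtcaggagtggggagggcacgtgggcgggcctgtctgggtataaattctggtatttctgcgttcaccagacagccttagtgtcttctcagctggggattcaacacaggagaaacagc
Adm2, chr15:89322470-89322769, plus strand: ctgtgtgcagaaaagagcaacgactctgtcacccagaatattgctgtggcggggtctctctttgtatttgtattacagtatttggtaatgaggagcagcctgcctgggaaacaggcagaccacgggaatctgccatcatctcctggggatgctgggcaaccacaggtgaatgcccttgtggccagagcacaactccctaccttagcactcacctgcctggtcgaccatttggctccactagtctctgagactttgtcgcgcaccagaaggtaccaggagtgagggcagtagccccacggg
The window of Inhbe held 1 match, TTGCATCA at position -181 from the RefSeq start, and that of Fgf21 held the same letters at position -139. Both were read on the opposite strand, and both also fitted the stricter TGATGCAA. The window of Adm2 held none, and neither did the windows of Gdf15, Vegfa and Stc2. Of all 32851 promoter windows, 3.97% held TGATGNAA and 0.895% held TGATGCAA. The core letters of the hypoxia response element were searched as well, in the 2 forms ACGTG and GCGTG, which 19.6% and 32.4% of all windows held. Fgf21 held 2 matches of ACGTG, which overlap on opposite strands, and 1 of GCGTG, Inhbe held 1 of ACGTG, and Stc2 held 2 of GCGTG. A further RefSeq window of Vegfa, at an inner start, held 1 of each, and an inner window of Gdf15 held 2 overlapping matches of ACGTG. The GENCODE model of Inhbe starts upstream of the RefSeq start, so the Inhbe window lies inside that gene model. Whether the authors counted reads over the same model is not known here.

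Levels are given as CPM, the usual scaling of gene counts to library size, with TMM factors that even out library composition, and each mean has its SD over the 3 libraries of a group. Total counts ranged from 48763102 to 74962733 per library. All 10 markers of ES cells were measured, with a summed level of 4480 to 4517 CPM in unstarved, 4533 to 4619 CPM in Thr-starved and 4222 to 4259 CPM in Cys-starved libraries. Differences were tested on the raw counts by the quasi-likelihood test of edgeR in a single fit of the 9 libraries, and a gene was called where its p, adjusted by Benjamini-Hochberg over all 20143 genes, was at most 0.05. The summed level hides changes of single ES cell markers. Under Thr starvation 5 were called higher and 5 lower, beside 31.1% and 31.9% of all genes. Under Cys starvation 3 were higher and 7 lower, beside 17.5% and 18.8%. With Thr, Utf1 fell from 307.4 to 95.1 CPM (log2 fold change -1.69), and Klf4 rose by 0.85 on the log2 scale. Since 3 comparisons were made among 3 groups, both starvations share the unstarved libraries. In bulk RNA, a higher level in each cell and more cells with the transcript cannot be told apart.

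All 6 genes were higher in Cys-starved than in unstarved cells, and 5 of 6 were higher in Thr-starved cells, with Fgf21 as the member that was not called. Among all genes tested, 17.5% were called higher and 18.8% lower under Cys starvation (36.3% in either direction), and 31.1% were called higher and 31.9% lower under Thr starvation (63.0% in either direction). The deposited size factors, in place of TMM, moved the share of Cys calls that were higher from 48.2% to 36.8% and left the calls of the 6 genes as they were. The libraries of the compared groups did not overlap for 6 of 6 members with Cys and 5 of 6 with Thr, where the background was 46.4% and 66.5% of genes. The median log2 fold change of the members was 1.54 with Cys and 0.97 with Thr, beside 0.0068 and -0.016 over all genes tested. In the direct comparison all 6 were called, with Gdf15 higher under Thr starvation and the other 5 higher under Cys starvation, and no libraries overlapped. There, 62.0% of all genes were called, 30.4% higher and 31.6% lower with Thr, and 65.8% did not overlap. Leaving out any 1 library changed none of these member calls.

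**Figure D1:**
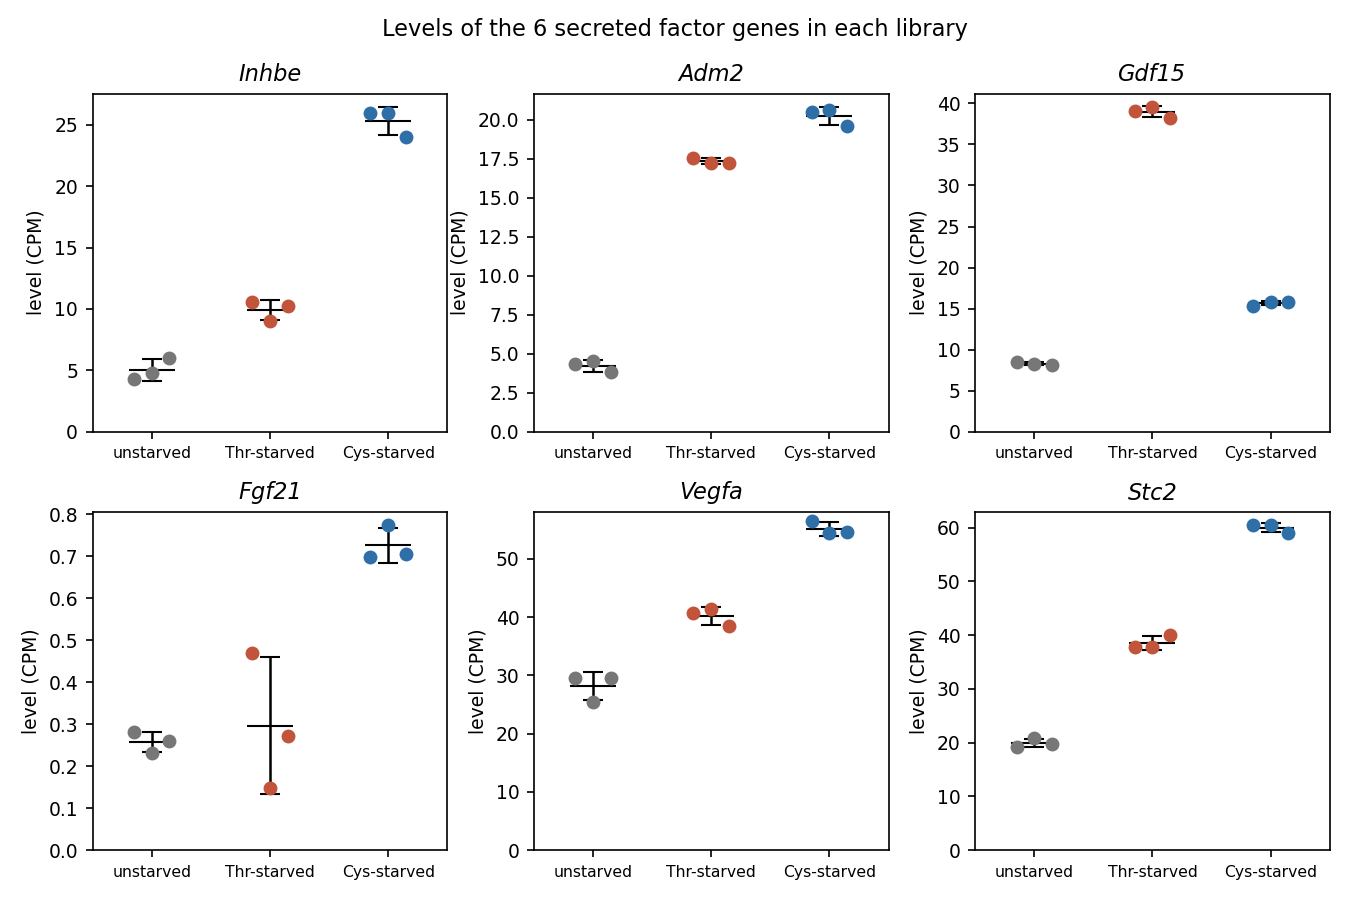
Level in CPM (vertical axes, each from 0) of the 6 genes in the 9 libraries, with points for single libraries, a bar for the group mean and whiskers for the SD of 3 libraries. Gdf15 was highest in the Thr-starved libraries, at 38.2 to 39.5 CPM, whereas Inhbe, Adm2, Vegfa and Stc2 were highest in the Cys-starved ones, and the Thr-starved libraries of Fgf21 spread from 0.147 to 0.469 CPM.

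Inhbe (ENSMUSG00000047492, chromosome 10, 127348857 to 127354411, minus strand) stood out in the Cys-starved libraries. Its level was 4.30, 4.82 and 5.99 CPM in the 3 unstarved libraries, 10.6, 9.04 and 10.2 CPM in the Thr-starved ones and 26.0, 25.9 and 24.0 CPM in the Cys-starved ones. The groups were fully separated, with the Thr-starved libraries between the other two groups. Mean levels were 5.04 ± 0.867, 9.94 ± 0.796 and 25.3 ± 1.14 CPM (SD, n = 3 each). Inhbe thus rose 5.03-fold under Cys starvation (log2 fold change 2.34, SE 0.084, edgeR adjusted p = 2.0e-15), which ranked 28 from the top of 20143 genes. Under Thr starvation it rose 1.97-fold (log2 fold change 0.99, SE 0.092, edgeR adjusted p = 2.45e-09) and ranked 1363. Thr against Cys gave a log2 fold change of -1.35 (SE 0.076, edgeR adjusted p = 5.45e-13), with Cys 2.55-fold above Thr. A noncoding antisense gene, Gm47200, spans the Inhbe locus on the opposite strand without overlapping its exons and was not analysed here. The strand setting of the counting is not given in the sources used here.

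Gdf15 (ENSMUSG00000038508, chromosome 8, 70629393 to 70632456, minus strand), the other TGF-β family member, had the opposite order of the starvations. Unstarved libraries held 8.50, 8.27 and 8.09 CPM, Cys-starved libraries 15.4, 15.8 and 15.8 CPM, and Thr-starved libraries 39.1, 39.5 and 38.2 CPM. No 2 groups overlapped, and the spread within a group was small beside the steps between them (means 8.29 ± 0.207, 15.6 ± 0.256 and 39.0 ± 0.672 CPM, SD, n = 3 each). Gdf15 rose 4.70-fold under Thr starvation (log2 fold change 2.23, SE 0.048, edgeR adjusted p = 1.9e-20) and 1.89-fold under Cys starvation (0.92 on the log2 scale, SE 0.052, edgeR adjusted p = 5.6e-12). The direct difference was 1.32 on the log2 scale in favour of Thr (SE 0.044, edgeR adjusted p = 5.68e-17). It ranked 110 from the top with Thr and 552 with Cys.

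Adm2 (ENSMUSG00000054136, chromosome 15, 89322720 to 89324731, plus strand) rose strongly under both starvations. It was at 4.37, 4.50 and 3.80 CPM in unstarved libraries, 17.6, 17.2 and 17.2 CPM in Thr-starved libraries and 20.5, 20.6 and 19.6 CPM in Cys-starved libraries. Every starved library was thus far above every unstarved one, and the starved groups lay close together without overlapping. The mean rose from 4.22 ± 0.370 CPM to 17.4 ± 0.191 CPM with Thr (4.11-fold, log2 fold change 2.03, SE 0.067, edgeR adjusted p = 3.25e-17) and to 20.2 ± 0.584 CPM with Cys (4.79-fold, log2 fold change 2.26, SE 0.066, edgeR adjusted p = 4.95e-17), with n = 3 libraries each. Thr against Cys gave a log2 fold change of -0.22, with Cys 1.17-fold higher (SE 0.055, edgeR adjusted p = 0.0012), the smallest such difference among the 6 genes. Under Cys starvation the fold changes of Adm2 and Inhbe lay within 1 SE of each other.

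Fgf21 (ENSMUSG00000030827, chromosome 7, 45613886 to 45615490, minus strand) was the lowest of the 6 genes. It had 17, 14 and 14 counts in unstarved libraries, 23, 7 and 20 in Thr-starved libraries and 44, 50 and 42 in Cys-starved libraries, or 0.258 ± 0.0248, 0.296 ± 0.163 and 0.725 ± 0.0414 CPM (SD, n = 3 each). The Cys-starved libraries were above all others, whereas the Thr-starved ones spread below and above the unstarved ones. Fgf21 rose 2.82-fold under Cys starvation (log2 fold change 1.49, SE 0.34, edgeR adjusted p = 0.0014), which ranked 150 from the top. The Thr difference was 0.20 on the log2 scale (SE 0.39, edgeR adjusted p = 0.68), so a change could not be detected at this depth, and without Thr-starved replicate 1 it was -0.23. The direct comparison put Thr below Cys (log2 fold change -1.29, SE 0.34, edgeR adjusted p = 0.0021). Even counts were more frequent than odd ones in the table, at 67.8% of the values from 1 to 20, and the Cys call held with all counts halved (edgeR adjusted p = 0.00063).

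Vegfa (ENSMUSG00000023951, chromosome 17, 46016993 to 46032369, minus strand) was already well expressed in unstarved cells and had the smallest rise among the called members under Thr starvation. Its level was 29.5, 25.4 and 29.6 CPM in unstarved, 40.7, 41.4 and 38.5 CPM in Thr-starved and 56.5, 54.4 and 54.6 CPM in Cys-starved libraries. The 3 groups were again separated, in the order unstarved, Thr-starved, Cys-starved. The means of 28.2 ± 2.41, 40.2 ± 1.49 and 55.1 ± 1.15 CPM (SD, n = 3 each) gave a 1.43-fold rise with Thr (log2 fold change 0.51, SE 0.049, edgeR adjusted p = 4.28e-09) and a 1.96-fold rise with Cys (log2 fold change 0.97, SE 0.048, edgeR adjusted p = 5.38e-13). The direct difference was -0.46 on the log2 scale (SE 0.047, edgeR adjusted p = 1.12e-08). With Thr, Vegfa ranked 3698 from the top of all genes tested, and with Cys it ranked 484.

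Stc2 (ENSMUSG00000020303, chromosome 11, 31357307 to 31370074, minus strand) followed the same order as Vegfa with larger steps. Unstarved libraries held 19.3, 20.9 and 19.7 CPM, Thr-starved libraries 37.7, 37.7 and 40.0 CPM, and Cys-starved libraries 60.4, 60.5 and 59.0 CPM. No groups overlapped, and each starved library held well over the highest unstarved level. From 19.9 ± 0.825 CPM, the mean rose to 38.5 ± 1.28 CPM with Thr (1.93-fold, log2 fold change 0.95, SE 0.042, edgeR adjusted p = 4.37e-15) and to 60.0 ± 0.835 CPM with Cys (3.01-fold, log2 fold change 1.59, SE 0.040, edgeR adjusted p = 4.15e-18), with n = 3 each. Thr against Cys gave a log2 fold change of -0.64 (SE 0.038, edgeR adjusted p = 1.17e-12). Its rank was 1474 with Thr and 116 with Cys.

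**Figure D2:**
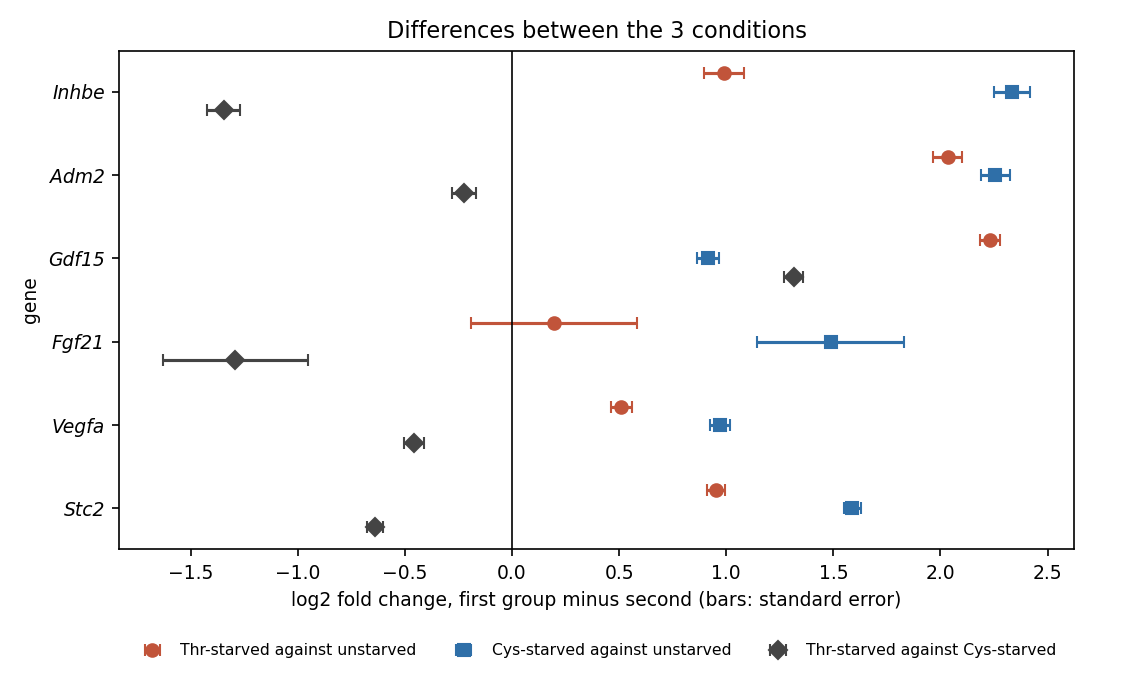
Log2 fold change of the 6 genes (horizontal axis, first group minus second) with whiskers for the SE, for Thr-starved against unstarved (circles), Cys-starved against unstarved (squares) and Thr-starved against Cys-starved libraries (diamonds). In the direct comparison only Gdf15 lies to the right of 0, at 1.32, and the other 5 genes lie between -1.35 and -0.22.

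Set side by side per length, the order of the 6 genes changed with the condition. Values here are levels in CPM per kilobase of annotated exon. In unstarved cells Vegfa was highest at 6.58 and was followed by Gdf15 at 4.47, Stc2 at 3.85, Adm2 at 3.25, Inhbe at 0.947 and Fgf21 at 0.271. Under Thr starvation Gdf15 came first at 21.0, before Adm2 at 13.4, Vegfa at 9.38 and Stc2 at 7.44. Under Cys starvation Adm2 led at 15.6, Vegfa stood at 12.9 and Stc2 at 11.6, and Gdf15 fell back to the fourth place at 8.45. Inhbe came next to last, at 1.87 with Thr and 4.76 with Cys, and Fgf21 remained last, at 0.312 and 0.763. Neighbours in each of these orders did not overlap between libraries. The exon length of Inhbe, 5319 bases, follows its GENCODE model, which starts upstream of the RefSeq start. Its place in these orders depends on that model, since a shorter one would raise its level per length. Inhbe has 1 annotated transcript, so the length of the longest transcript leaves its level as it is. With the length of the longest transcript in place of all exons, Vegfa passed Adm2 under Cys starvation (15.98 and 15.6), the libraries of Vegfa, Adm2 and Stc2 then overlapped along that order, and so did those of Gdf15 and Stc2 in unstarved cells. The summed level of the 6 genes, in CPM without regard to length, was 65.9 ± 1.69 in unstarved, 145.2 ± 0.849 in Thr-starved and 177.0 ± 3.02 in Cys-starved libraries (SD, n = 3 each).

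**Figure D3:**
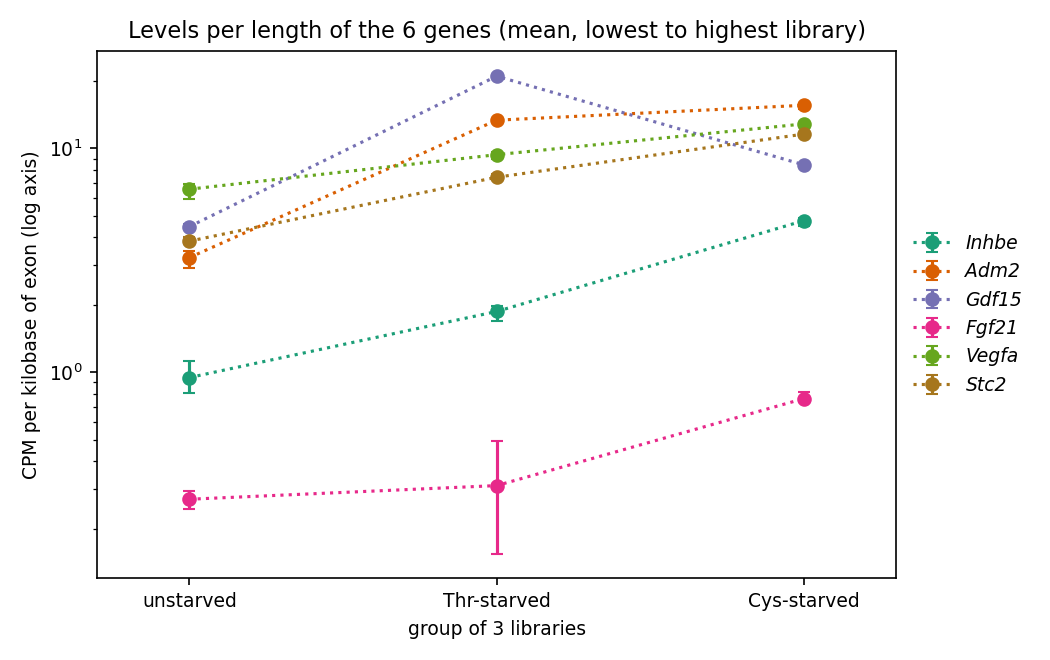
Mean level per kilobase of exon (log axis) of the 6 genes in the 3 groups, with whiskers from the lowest to the highest of 3 libraries and dotted lines that only join the points of a gene. The line of Gdf15 peaks at 21.0 in Thr-starved libraries and crosses those of Adm2, Vegfa and Stc2 on the way to Cys-starved libraries, where it stands at 8.45.

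The genes whose pattern over the 9 libraries was most like that of each member were searched for among the 14587 genes whose mean reached 1 CPM. Likeness was the root mean square (RMS) difference of the log2(CPM + 0.5) profiles, each centred on its own mean over the libraries. Nearest to Adm2 were Chac1, which encodes a glutathione-degrading enzyme of the ISR (RMS difference 0.095), the BH3-only gene Hrk (0.19) and Tsc22d3 (0.29). Chac1 had mean levels of 27.6, 95.1 and 126.6 CPM in unstarved, Thr-starved and Cys-starved libraries. Nearest to Gdf15 were the transcription factor gene Klf6 (0.10), the arrestin-family gene Txnip (0.12) and Gm10557 (0.13), all of which had their highest level in Thr-starved libraries. Txnip went from 114.1 to 492.8 CPM with Thr and to 241.6 CPM with Cys. Inhbe and Stc2 shared Vldlr, a lipoprotein receptor gene, and Fut1, a fucosyltransferase gene, among their nearest genes, at 0.26 and 0.31 for Inhbe and 0.11 and 0.12 for Stc2. Mef2b completed the list for Inhbe (0.31), and Zfp516 was the nearest gene to Stc2 (0.092). For Vegfa they were Mrnip (0.099), Pde4dip (0.10) and the alanine transaminase gene Gpt2 (0.12). For Fgf21 they were Naglu (0.094), Plekhh3 (0.10) and Ttc38 (0.11), in a profile that the added 0.5 CPM flattens. Among the other 5 members, Vegfa and Stc2 differed least (0.27), and Inhbe and Gdf15 differed most (1.07).

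Some of the counted genes nearest to the members on the chromosome moved as well, at distances of 1799 to 295107 bp. Fut1, which starts 1799 bp from Fgf21 on the opposite strand, had 0.867 CPM in unstarved, 2.15 CPM in Thr-starved and 4.003 CPM in Cys-starved libraries. It rose under both starvations, by 1.31 with Thr (edgeR adjusted p = 2.6e-07) and 2.20 with Cys (edgeR adjusted p = 1.2e-10) on the log2 scale. Inhbc, an activin gene on the strand of Inhbe at a distance of 1911 bp, rose by 0.72 with Cys (edgeR adjusted p = 0.0092) and had a log2 fold change of -0.14 with Thr (edgeR adjusted p = 0.61). Its level was low, at 0.72 CPM in unstarved, 0.66 CPM in Thr-starved and 1.19 CPM in Cys-starved libraries. Other counted neighbours went in either direction with Thr, where 63.0% of all genes were called. Gli1 near Inhbe, Sbf1 and Lmf2 near Adm2 and Pgpep1 near Gdf15 fell, with log2 fold changes of -0.56, -0.38, -0.49 and -0.35. They lay 6883, 7409, 26273 and 13979 bp away. Mrps18a, 78617 bp from Vegfa, rose by 0.71, and Asb3 and Bod1, 254603 and 295107 bp from Stc2, rose by 0.31 each. Gm45546 near Gdf15, Izumo1 near Fgf21 and Rsph9 near Vegfa, at 16575, 6321 and 89666 bp, were not called. Their values were -0.069, 0.036 and 0.61 on the log2 scale (edgeR adjusted p = 0.92, 0.95 and 0.11). With Cys, where 36.3% of all genes were called, Pgpep1 fell by 0.21 (edgeR adjusted p = 0.00041). Mrps18a rose by 0.13 (edgeR adjusted p = 0.017), and no other neighbour besides Fut1 and Inhbc was called with Cys.

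Most other ISR genes were higher under both starvations too. The 17 fixed ISR genes include the factors that act on such promoters and enzymes and transporters of amino acid supply. Of these, 15 rose and 2 fell with Thr, beside 31.1% and 31.9% of all genes. With Cys 16 rose and 1 was not called, beside 17.5% of all genes called higher. The median log2 fold change of the 17 was 0.97 with Thr and 0.55 with Cys. The largest rises with Thr were those of the transcription factor genes Atf3 (log2 fold change 3.06, SE 0.063) and Ddit3, which encodes CHOP (2.46, SE 0.044), and of the chromatin factor gene Nupr1 (2.07, SE 0.038). With Cys they were those of Atf3 (2.61, SE 0.064), Chac1 (2.20, SE 0.035) and Vldlr (1.77, SE 0.052). Between the starvations, 10 of the 17 were higher with Thr and 5 higher with Cys, beside 30.4% and 31.6% of all genes. Ddit3, Cebpg and Vldlr differed most, by 2.21, 1.00 and -0.88 on the log2 scale. Gdf15 and Ddit3 were both higher with Thr, and Inhbe and Vldlr both higher with Cys. Of the 6 members 5 were higher with Cys, as were 5 of the 17 ISR genes. The median direct difference of the 17 was 0.098 on the log2 scale, in favour of Thr. A shared regulation was not tested.

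Of 13 transcription factor genes known to act on promoters of the members, 10 rose and 3 fell with Thr, beside 31.1% and 31.9% of all genes. With Cys 7 rose and 4 fell, beside 17.5% and 18.8%. This list shares Atf4, Ddit3, Atf3 and Cebpb with the ISR list. Atf4 itself, whose protein is controlled mainly by translation, rose by 0.73 with Thr (SE 0.021, edgeR adjusted p = 2.11e-18) and by 0.36 with Cys (SE 0.021, edgeR adjusted p = 7.87e-12), and its direct difference was 0.37 in favour of Thr. Cebpb, a partner of ATF4, rose by 1.25 with Thr and 1.06 with Cys. Nfe2l2, the gene of the oxidative stress factor NRF2, and Xbp1, a factor of the unfolded protein response, lay 0.81 and -1.08 apart in the direct comparison, with Nfe2l2 higher and Xbp1 lower under Thr. In that comparison 10 of the 13 were higher and 3 lower with Thr, beside 30.4% and 31.6% of all genes. There, 5 of the 6 secreted factor genes were lower. These are RNA levels, and whether the factors acted on the 6 genes was not tested.

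Vegfa is also a classical target of the hypoxia factors (HIF), so other HIF targets were counted beside it. Of 15 such genes, 2 rose and 10 fell with Thr (median log2 fold change -0.60), beside 31.1% and 31.9% of all genes. With Cys 3 of the 15 rose and 6 fell (median -0.025), beside 17.5% and 18.8%. Among those with a mean of 1 CPM or more, the largest falls with Thr were those of Ankrd37 (-1.97, SE 0.13), the glucose transporter gene Slc2a1 (-1.67, SE 0.026) and the prolyl hydroxylase gene Egln3 (-1.17, SE 0.11). With Cys, Bnip3 (-0.70, SE 0.076) and Egln3 (-0.59, SE 0.10) fell, and Ddit4 rose by 1.3 (SE 0.030). Bnip3 also fell with Thr, by 1.15 (SE 0.080), and Ddit4 also rose, by 0.94 (SE 0.030). Ddit4, an mTORC1 inhibitor gene, is also a known ATF4 target and stands in the ISR list too. Vegfa rose by 0.51 with Thr and by 0.97 with Cys. Of the 15 genes, 12 were lower with Thr than with Cys, as Vegfa was, beside 31.6% of all genes. The 1 that was higher, beside 30.4%, was the glycolytic regulator gene Pfkfb3 (0.80, SE 0.047). A part of HIF or of ATF4 in the levels of Vegfa was not tested.

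Genes for the receptors of the 6 factors showed no common direction. Of 16 measured genes, 4 rose and 5 fell with Thr, beside 31.1% and 31.9% of all genes. With Cys 5 rose and 3 fell, beside 17.5% and 18.8%. With Thr the FGF receptor gene Fgfr2 (log2 fold change 1.42, SE 0.054) and the VEGF coreceptor gene Nrp1 (1.31, SE 0.17) rose, and Ramp3, a partner of the ADM2 receptor, fell by 1.87 (SE 0.13). With Cys the activin receptor gene Acvr2a rose by 0.46 (SE 0.052), the VEGF receptor gene Kdr by 0.67 (SE 0.19), and Ramp3 fell by 0.31 (SE 0.11). Acvr2a and Kdr also rose with Thr, by 1.13 (SE 0.051) and 0.65 (SE 0.19). With the starvations set against each other, Fgfr2 and Nrp1 were higher with Thr by 1.61 and 1.46, and Ramp3 was lower (-1.55). A further 3 receptor genes, named after their values were seen, had low levels. Calcrl, which encodes the ADM2 receptor itself, was at 0.347 ± 0.0913 CPM in unstarved, 0.146 ± 0.126 CPM in Thr-starved and 1.11 ± 0.148 CPM in Cys-starved libraries (SD, n = 3 each). It rose with Cys (log2 fold change 1.68, SE 0.33, edgeR adjusted p = 0.00027) and fell with Thr (-1.26, SE 0.44, edgeR adjusted p = 0.017), although in the latter case the libraries overlapped. Klb, the gene of β-klotho, was at 0.0675 ± 0.0562, 0.116 ± 0.0766 and 0.0965 ± 0.0328 CPM and was not called. Ret, the signalling partner of GFRAL, was at 2.75 ± 0.0554, 2.26 ± 0.296 and 2.73 ± 0.248 CPM and was not called either. The genes Gfral, Acvr1c and Ramp1 were not analysed here.

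The inhibitors and processing partners of the factors were called in either direction as well. Of 12 measured, 3 rose and 7 fell with Thr (median log2 fold change -0.63), beside 31.1% and 31.9% of all genes, and 2 rose and 4 fell with Cys (median -0.27), beside 17.5% and 18.8%. Fst, which encodes the activin antagonist follistatin, rose by 1.94 with Thr (SE 0.076, edgeR adjusted p = 5.9e-16) and by 0.58 with Cys (SE 0.082, edgeR adjusted p = 7.02e-06), so that Inhbe and Fst had opposite orders of the starvations. Sdf2 rose by 0.79 with Thr (SE 0.051), and the matrix protease gene Mmp2 fell by 1.16 (SE 0.097). With Cys the proprotein convertase gene Pcsk6 fell by 0.49 (SE 0.041) and Igfbp4, which encodes a binding protein that PAPP-A cleaves, by 0.37 (SE 0.098). Both fell further with Thr, Pcsk6 by 0.67 (SE 0.042) and Igfbp4 by 0.72 (SE 0.10). In the direct comparison 4 were higher and 5 lower with Thr, beside 30.4% and 31.6% of all genes. Fst was at 1.36, Sdf2 at 0.65 and Mmp2 at -0.84.

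The paralogs of the 6 genes were called in either direction. Of 13 measured, 3 rose and 6 fell with Thr (median log2 fold change -0.14), beside 31.1% and 31.9% of all genes, and 2 rose and 3 fell with Cys (median -0.050), beside 17.5% and 18.8%. Fgf15, an endocrine relative of Fgf21, fell by 3.21 with Thr (SE 0.18, edgeR adjusted p = 2.38e-13) and by 0.68 with Cys (SE 0.13, edgeR adjusted p = 0.00023). Its level went from 4.18 CPM in unstarved to 0.437 CPM in Thr-starved and 2.60 CPM in Cys-starved libraries. Inhbb, the activin B subunit gene, fell by 1.24 with Thr (SE 0.044) and had a log2 fold change of -0.026 with Cys (edgeR adjusted p = 0.67). Gdf11 fell by 0.60 with Thr (SE 0.18), the lymphatic growth factor gene Vegfc fell by 0.65 with Cys (SE 0.056), and the calcitonin gene Calca rose by 0.54 with Cys (SE 0.073). Directly compared, 4 paralogs were higher and 6 lower with Thr, beside 30.4% and 31.6% of all genes. Vegfc was at 0.92, Inhbb at -1.21 and Fgf15 at -2.53.

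Among other secreted signalling genes of ES cells and embryos, more fell than rose. Of 29 measured, 7 rose and 17 fell with Thr (median log2 fold change -0.35), beside 31.1% and 31.9% of all genes. With Cys 3 of the 29 rose and 13 fell (median -0.30), beside 17.5% and 18.8%. Among the genes of this list with a mean of 1 CPM or more, the falls with Thr were largest for Manf, which encodes a secreted factor of the endoplasmic reticulum (-2.35, SE 0.035), and Bmp4, a ligand that supports self-renewal (-2.12, SE 0.045), while Lif, the gene of the leukemia inhibitory factor, rose by 1.64 (SE 0.10). With Cys the Nodal antagonist gene Lefty2 fell by 0.88 (SE 0.090), Creld2 by 0.63 (SE 0.039), and Angptl6 rose by 0.55 (SE 0.12). Lefty2 and Creld2 also fell with Thr, by 0.82 (SE 0.091) and 0.40 (SE 0.039), and Angptl6 was not called there. In the direct comparison 8 were higher and 12 lower with Thr, beside 30.4% and 31.6% of all genes. Lif was at 1.67, Bmp4 at -1.87 and Manf at -1.91. Under 3 other scalings of the libraries, the counts of called genes in each of these lists changed by at most 1 gene.

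**Figure D4:**
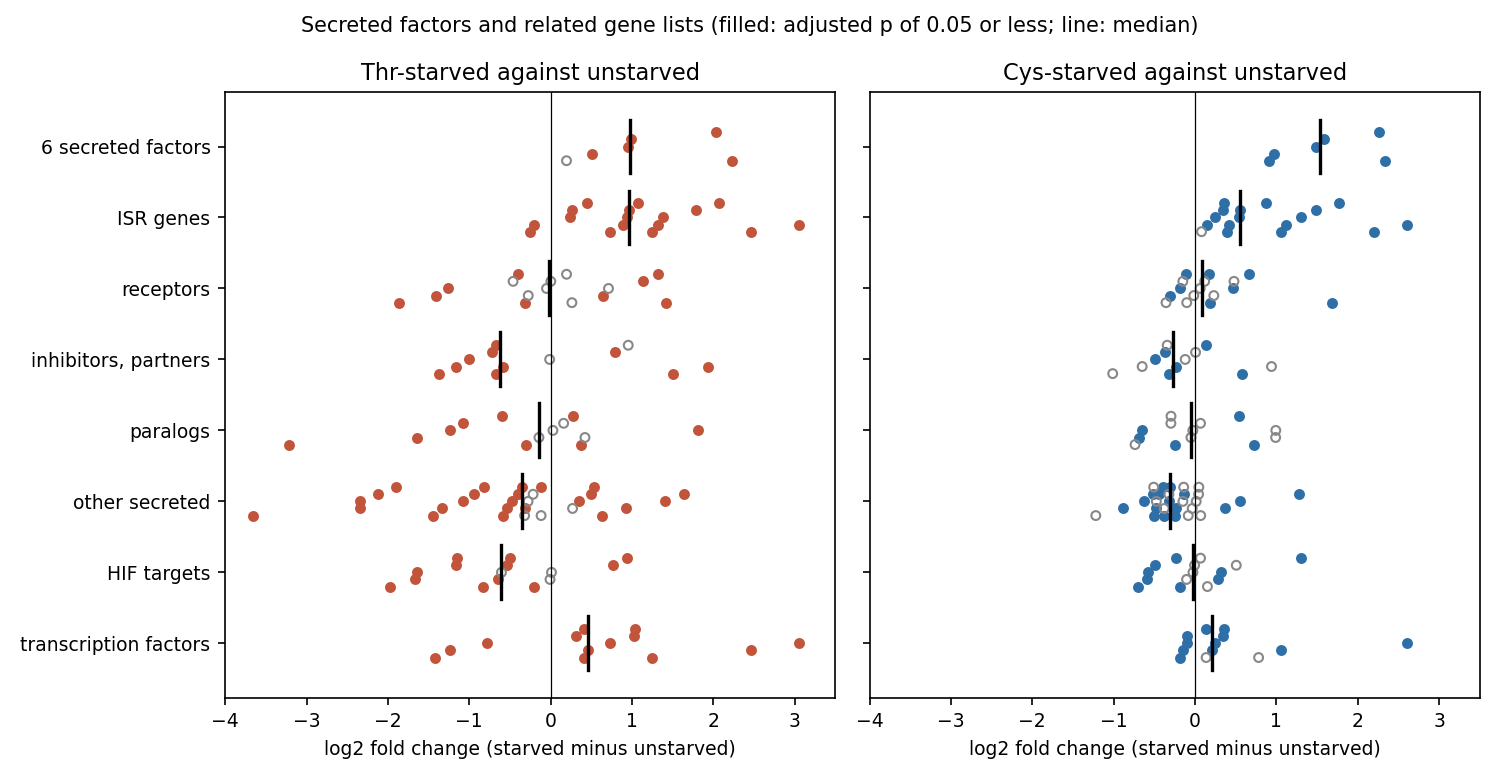
Log2 fold change (horizontal axes, starved minus unstarved) of the 6 secreted factor genes and of the genes of 7 lists, 1 point per gene, filled where the adjusted p was 0.05 or less, with a black line at the median of each row. The medians of the secreted factors lie at 0.97 with Thr and 1.54 with Cys, and those of the other secreted genes at -0.35 and -0.30.

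Markers of other cells were low and were read for the same libraries. The 5 of 8 fibroblast markers that were measured summed to 15.1 to 15.4 CPM in unstarved, 10.1 to 11.4 CPM in Thr-starved and 13.7 to 16.8 CPM in Cys-starved libraries. Of the 5, 3 were called lower with Thr and 1 with Cys, and none was called higher. The 8 primitive endoderm markers summed to 9.97 to 11, 9.49 to 10.7 and 12.8 to 14.0 CPM. Of the 8, 3 were called higher with Cys, beside 17.5% of all genes. With Thr 3 were higher and 1 lower, beside 31.1% and 31.9%. The 6 of 7 trophectoderm markers measured summed to 54.8 to 56.8, 61.7 to 67.8 and 50.7 to 53.2 CPM, most of it from Tfap2c. The 6 endothelial markers summed to 67.7 to 69.8, 56.4 to 58.3 and 63.3 to 64.6 CPM, most of it from Pecam1. ES cells also express Tfap2c and Pecam1. Of the trophectoderm markers, 2 were higher and 2 lower with Thr, and 1 was higher and 2 lower with Cys. With Thr, Tfap2c rose (log2 fold change 0.27), whereas Cdx2 (-1.32) and Eomes (-1.53) fell. Of the endothelial markers, 1 was higher and 1 lower with Thr, and 1 was higher and 2 lower with Cys. The 1 lower with Thr was Esam (-3.725, SE 0.13), and Pecam1 was not called (-0.044). Of 7 hepatocyte markers none was analysed here. The part of these cells in the levels of the 6 genes was not tested.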

How the data were processed

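Both deposited tables were used. Per the labels and the methods, the authors mapped paired-end reads to GRCm38 with STAR 2.7.4a, obtained gene counts with HTSeq, which they deposited as raw counts. The authors also deposited normalized values (signal), which are the same counts divided by 1 size factor per library computed with DESeq2 (DESeq version 1.30.1 in R 4.0.3). Strand and overlap settings of the counting are not given in the sources used here. Groups and replicate numbers come from the sample titles. The unstarved columns carry a further tag, which the starved columns lack and the sources used here do not explain. They were matched to the unstarved samples by the letters WT and the number. Whether the tag marks a batch is not known here.

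Raw counts were tested with edgeR 4.0.16 in R 4.3.3 by the quasi-likelihood F test with TMM normalization on genes with at least 1 count over the 9 libraries, all libraries in 1 fit, group as the only term, with Benjamini-Hochberg adjustment per comparison. The SE is the log2 fold change divided by the root of F. CPM use the same TMM factors. The members and gene lists were chosen with earlier results of these data known. Named were all 6 members, of each list up to 3 called genes per comparison with a mean of at least 1 CPM, libraries that do not overlap and the largest change, and for each member the 3 genes with the nearest profile. Between libraries of a group the mean chi-square per gene was 1.95 to 2.09 at summed counts of 10 to 100, where sampling of independent counts gives 1, and 0.980 to 1.06 with counts halved, so low counts showed no spread beyond sampling once halved. At summed halved counts of 1000 or more it was 1.62 to 8.12. On simulated counts with 200 changed genes, the fit called 199 of them and 10 others. The simulated counts were independent and no gene as low as Fgf21 was changed, so the outcome does not cover such genes. Depth was 48763102 to 74962733 counts per library, and the common coefficient of variation was 3.53%. Positions came from GENCODE M21, promoters from RefSeq (GRCm38.p6), matched for 6 of 6 members.

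Alternatives were DESeq2 1.42.0, RLE factors, the deposited size factors, filterByExpr, at least 10 counts in every library, fits of 2 groups, a replicate block, thinned counts, an adjusted p of 0.01, a log2 fold change of 1 or more in either direction, each library left out, and, chosen after seeing the data, halved counts. The amino acid makeup of the member proteins was not analysed here.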

Additional observations from a re-analysis of the deposited data

How the results depend on the processing

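Of 357 values of single members under these alternatives, 348 kept their direction and their side of the threshold. Requiring a log2 fold change of 1 or more in either direction lowered the called members from 5 to 2 with Thr, from 6 to 4 with Cys and from 6 to 3 in the direct comparison, the called list genes to 42, 9 and 24, and all called genes to 2668, 296 and 2303, by the construction of that setting. The Thr difference of Fgf21, which was not called, ranged from -0.23 to 0.48 on the log2 scale when 1 library at a time was left out and was negative without Thr-starved replicate 1. Fgf21 has no value when at least 10 counts in every library are required, since 1 library held 7. With the replicate block, 5, 6 and 6 members were called, and 12488 genes in all with Thr, beside 12689 without it. The deviations of same-numbered libraries correlated at -0.24 to 0.11, with 7 of 9 correlations below 0, so that not every library correlated best with its own number, and the numbers were not taken to pair the samples.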
